A study of Mus musculus with 2 samples.

Results

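The miR-219 and miR-338 loci of the mouse are described here through 5 of the 2202 miRNA genes counted in cerebral cortex. The 5 genes, Mir219a-1, Mir219a-2, Mir219b, Mir338 and Mir3065, were chosen by name as oligodendrocyte miRNA genes and their opposite-strand partners. The data are small RNA sequencing of untreated wild-type control cortex (strain B6NCrl) in 2 libraries, labelled as biological replicates of 1 group. The labels describe the tissue as female but record sex and age as not collected. Both libraries cite the same donor record, so separate animals are not stated and the spread between them may be technical. Each library cites its own adapter trimming document, so trimming and replicate cannot be told apart.

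MicroRNAs are cut from hairpin precursors, and the mature strand pairs through its seed (bases 2 to 8) with messenger RNAs, which it represses. miR-219 and miR-338 are known as miRNAs of the oligodendrocyte lineage, the cells that make myelin in the brain. They accumulate as oligodendrocyte precursors differentiate and repress genes of the precursor state, among them Pdgfra, Sox6 and Hes5. In bulk cortex, fewer cells of a type and less RNA per cell cannot be told apart. No messenger RNA is in these tables, so the oligodendrocyte label could not be checked against myelin genes.

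The mature miRNAs that RefSeq lists for the loci are shown because mature strands decide which reads each gene can collect. For Mir219a-2 and Mir3065 RefSeq lists only 1 mature strand each, named 5p, and no 3p strand. Products of these genes may therefore be missing from the sequences below. The sequences are RefSeq's on GRCm38.p6, in which all 5 genes matched and had the same coordinates as in GENCODE M21. Capitals mark the seed.
miR-219a-5p (Mir219a-1 and Mir219a-2): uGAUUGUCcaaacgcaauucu
miR-219a-1-3p (Mir219a-1): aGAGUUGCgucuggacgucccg
miR-219b-5p (Mir219b): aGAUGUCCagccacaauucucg
miR-219b-3p (Mir219b): aGAAUUGCguuuggacaaucagu
miR-338-3p (Mir338): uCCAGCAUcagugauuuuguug
miR-338-5p (Mir338): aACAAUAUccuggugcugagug
miR-3065-5p (Mir3065): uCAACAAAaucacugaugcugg
Apart from the 2 copies of miR-219a-5p, these 7 names have different seeds. None of the 7 seeds is carried under another name among the 1738 mature entries of the RefSeq table. miR-338-3p and miR-3065-5p are complementary over 21 of their 22 bases, and all 21 bases of miR-219a-5p are complementary to miR-219b-3p.

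The 2 miR-219a precursors share the mature 5p strand. Their longest common run is 22 bases, in capitals below.
Mir219a-1 precursor: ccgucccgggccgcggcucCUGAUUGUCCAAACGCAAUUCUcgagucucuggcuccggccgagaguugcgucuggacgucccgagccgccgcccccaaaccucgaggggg
Mir219a-2 precursor: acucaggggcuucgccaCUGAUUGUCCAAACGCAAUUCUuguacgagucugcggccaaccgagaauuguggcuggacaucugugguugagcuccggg
A read that lies wholly inside this run matches both loci, and reads placed at several loci are in no gene's count. The counts of Mir219a-1 and Mir219a-2 are therefore not the level of miR-219a-5p. Over the whole precursor of Mir219a-2, 3 of 78 windows of 20 bases occur in another precursor of the RefSeq table, while 0 of 79 do for Mir338 and 0 of 68 for Mir3065. The 3 windows lie in the shared run that holds miR-219a-5p, so the proportion of windows is not the proportion of reads lost. The tables give 1 count per gene, so the arms of a precursor could not be separated.

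The 3 loci are small and lie on different chromosomes. Mir219a-2 (chr2:29845631-29845727, mm10, minus strand, 97 bases) lies between genes, 629 bases from Urm1. Mir219b (chr2:29845647-29845711, plus strand) lies wholly within it on the opposite strand and shares 65 bases. Mir338 (chr11:120014765-120014862, minus strand, 98 bases) lies in an intron of Aatk, which encodes a kinase of the nervous system, on the same strand. Mir3065 (chr11:120014767-120014853, plus strand) shares 87 bases with Mir338 and runs against both Mir338 and Aatk. Mir219a-1 (chr17:34024983-34025092, minus strand, 110 bases) overlaps 88 bases of the long noncoding RNA gene Gm26940, including exon sequence, on the same strand. It lies 303 bases from Ring1. On its opposite strand lies Mir219c (chr17:34025012-34025071, 60 bases), the only other counted gene named Mir219, which is given below because it overlaps Mir219a-1.

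**Figure D1:**
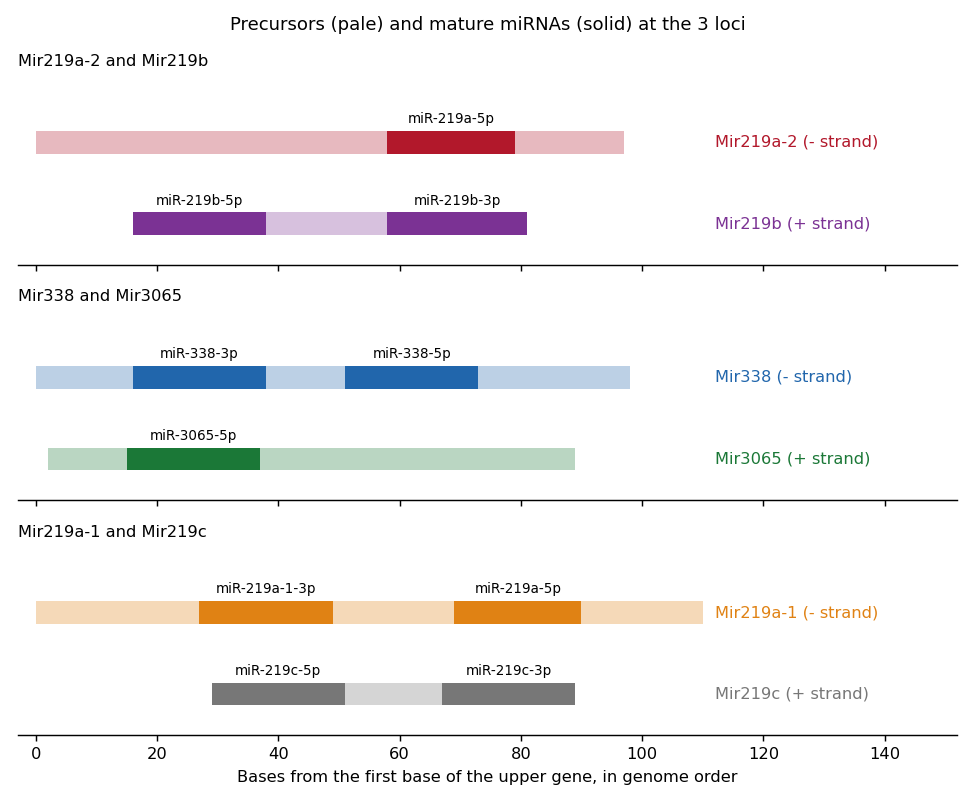
The 3 loci drawn in genome order, with bases from the first base of the upper gene on the x axis. Pale bars are precursors and solid bars are RefSeq mature miRNAs, and the lower gene of each pair overlaps the upper one by 65, 87 and 60 bases.

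By uniquely placed reads, Mir219a-2 and Mir338 were among the miRNA genes with the higher counts in the cortex, and the other 3 genes were low or near 0. Reads placed at several loci, 47.9% in replicate 2 and 43.9% in replicate 1, are in no gene's count. The ranks below are therefore not ranks of all miRNA in the tissue. The level used is CPM, which scales the sense reads of a gene to the sense reads of all genes in its library. Totals were 6985784 sense reads in replicate 2 and 4429633 in replicate 1. Mir219a-2 had 38249 reads in replicate 2 and 19759 in replicate 1, or 5475 and 4461 CPM, and ranked 39 and 43. Its mean was 4968 ± 717 CPM (SD, n = 2). It stood above 98.2% of the counted genes in replicate 2 and 98.0% in replicate 1. Mir338 had 16525 and 11687 reads, or 2366 and 2638 CPM, with ranks of 61 and 62. Its mean was 2502 ± 193 CPM (SD, n = 2), so the ranges of Mir219a-2 and Mir338 did not overlap.

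Mir219a-1, the second copy of miR-219a, was far below these in uniquely placed reads, with 71 reads in replicate 2 and 50 in replicate 1. Its level was 10.2 CPM in replicate 2 (95% Wilson interval 8.06 to 12.8) and 11.3 CPM in replicate 1 (8.56 to 14.9), a mean of 10.7 ± 0.795 CPM (SD, n = 2). Mir219b had 3 reads in replicate 2 and 0 in replicate 1, and Mir3065 had 1 and 0. A count of 0 allows a level of up to 0.429 CPM in replicate 2 and 0.677 CPM in replicate 1, so all values of both partners lie at or below these limits. Mir219b and Mir3065 therefore could not be placed in order at this depth. Intervals and limits cover counting error only, as the reads were counted without molecular identifiers.

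With detection set at 2 CPM or more in both libraries, 3 of the 5 genes were detected, against a background of 19.9% of all 2202 genes. Together the 5 genes held 0.785% of the sense reads in replicate 2 (95% Wilson interval 0.779 to 0.792) and 0.711% in replicate 1 (0.703 to 0.719). The mean was 0.748% ± 0.0524 (SD, n = 2), and Mir219a-2 with Mir338 made up 54774 of 54849 reads in replicate 2 and 31446 of 31496 in replicate 1. The difference between the libraries exceeds counting error. Divided by precursor length, the order of the 5 genes was the same, and Mir219a-2 was 2.01 times Mir338 in mean CPM per base.

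**Figure D2:**
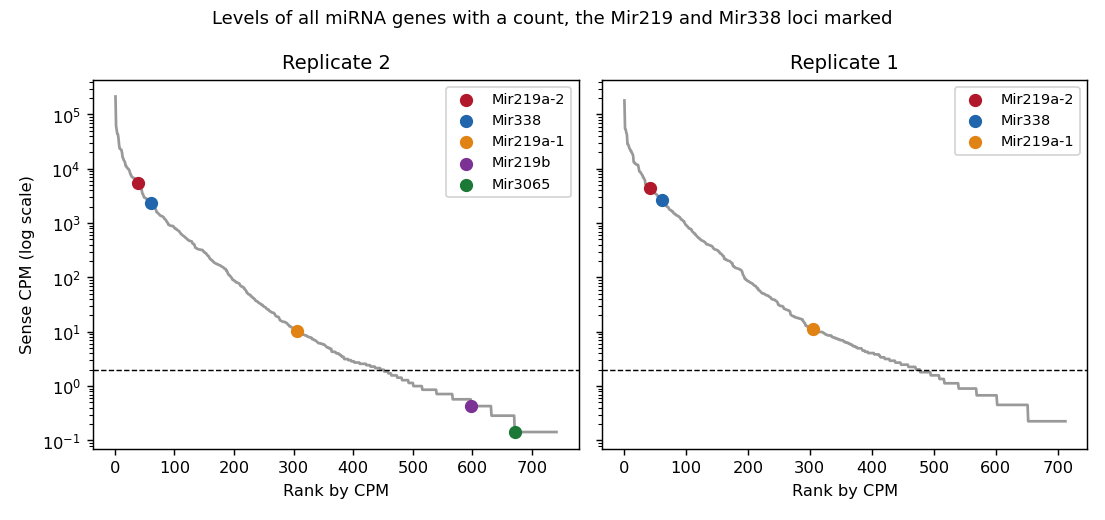
Sense CPM (log scale) of every gene with a count against its rank, replicate 2 on the left and replicate 1 on the right, with a dashed line at 2 CPM. Mir219a-2 and Mir338 sit within the first 62 ranks in both libraries, Mir219a-1 at rank 305, and Mir219b and Mir3065 appear in replicate 2 alone, with 3 reads and 1 read.

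The proportion of the 2 main genes to each other varied between libraries. Mir219a-2 had 2.31 times the reads of Mir338 in replicate 2 (exact 95% interval 2.27 to 2.36) and 1.69 times in replicate 1 (1.65 to 1.73). The intervals do not overlap, so this difference is larger than counting error. Mir219a-2 had 539 times the reads of Mir219a-1 in replicate 2 (427 to 690) and 395 times in replicate 1 (300 to 533). These intervals overlap. Mir338 had 233 and 234 times the reads of Mir219a-1. Reads wholly inside the run shared by Mir219a-2 and Mir219a-1 are in neither count. All these ratios therefore compare uniquely placed reads and are not ratios of the miRNA made at each locus.

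The strand columns show how the overlapping partners were counted. The tables give each gene's reads in 3 columns, which count either strand, the sense strand and the opposite strand. The opposite-strand count of Mir3065 was 16525 in replicate 2 and 11687 in replicate 1, equal to the sense counts of Mir338. Mir219b had 38247 and 19759 opposite-strand reads, within 2 reads of the sense counts of Mir219a-2. Mir219c had 69 and 49, against 71 and 50 sense reads of Mir219a-1. Thus the same reads are listed once as sense reads of one gene and once as opposite-strand reads of its partner.

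In the either-strand column these reads were lost. Mir219a-2 had 2 and 0 reads there, Mir219a-1 had 2 and 1, and Mir338, Mir219b and Mir3065 had 0 in both libraries. The 5 genes together had 4 reads in replicate 2 and 1 in replicate 1 in that column, against 54849 and 31496 in the sense column. None of the 5 was detected in it. The table's line of ambiguous reads held 393132 reads in replicate 2 and 217526 in replicate 1. The 3 loci account for 14.0% and 14.5% of it, of which the Mir219a-2 and Mir219b locus makes up 9.73% and 9.08%, and the Mir338 and Mir3065 locus 4.20% and 5.37%. For the 412 detected genes with no opposite-strand partner, the either-strand count equalled the sum of the other 2 columns in every gene and both libraries.

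**Figure D3:**
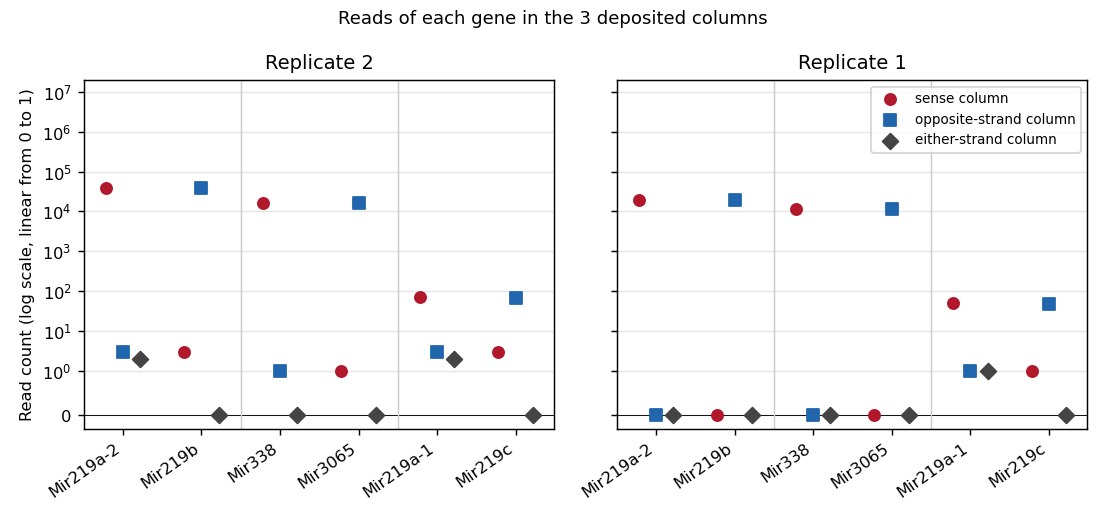
Read counts of the 5 genes and Mir219c in the sense (circles), opposite-strand (squares) and either-strand (diamonds) columns, on a log scale that is linear from 0 to 1, with replicate 2 left and replicate 1 right. Each partner's opposite-strand count sits at the sense count of the gene it overlaps, and the either-strand counts are all 2 or lower.

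Reads from the partners' own strand were few. At the Mir219a-2 locus, 3 of 38252 reads in replicate 2 had the direction of Mir219b, or 0.00784% (95% Wilson interval 0.00267 to 0.0231). In replicate 1 it was 0 of 19759, which allows a share of up to 0.0152%. At the Mir338 locus, 1 of 16526 reads had the direction of Mir3065 in replicate 2, or 0.00605% (0.00107 to 0.0343), and in replicate 1 0 of 11687, which allows up to 0.0257%. Opposite-strand reads made up 0.00229% (0.00195 to 0.00269) of the reads of detected genes without a partner in replicate 2 and 0.00230% (0.00189 to 0.00281) in replicate 1. The interval of Mir3065 spans that level in replicate 2, and that of Mir219b begins within the level's own interval.

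At the Mir219a-1 locus the share of the partner was higher. Mir219c had 3 of 74 reads in replicate 2, or 4.05% (1.39 to 11.3), and 1 of 51 in replicate 1, or 1.96% (0.347 to 10.3). Both intervals lie above the level of genes without a partner, though shares as high as these were also found in 6 of those 412 genes in replicate 2 and 9 in replicate 1. With 3 reads and 1 read, Mir219c was at or below the limit that a count of 0 allows.

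Overlap on opposite strands is found in 32 pairs of counted genes. Ordered by total reads, the Mir219a-2 and Mir219b pair was the 3rd of the 32 and the Mir338 and Mir3065 pair the 6th. Of the 25 pairs with a detected higher gene, the lower gene had no read in either library in 16. None of the 3 pairs described here is among those 16. The share of the lower gene over both libraries was 0.00517% for Mir219b, 0.00354% for Mir3065 and 3.20% for Mir219c, and in the other 22 pairs it ran from 0% to 17.0% with a median of 0%. The other pairs with the most reads were Mirlet7e with Gm25927, Mir191 with Gm24083, Mir378a with Gm25301, Mir129-2 with Mir129b and Mir409 with Gm24321. Among these 5, Mir129b alone had sense reads, 3 in replicate 2 and 0 in replicate 1.

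**Figure D4:**
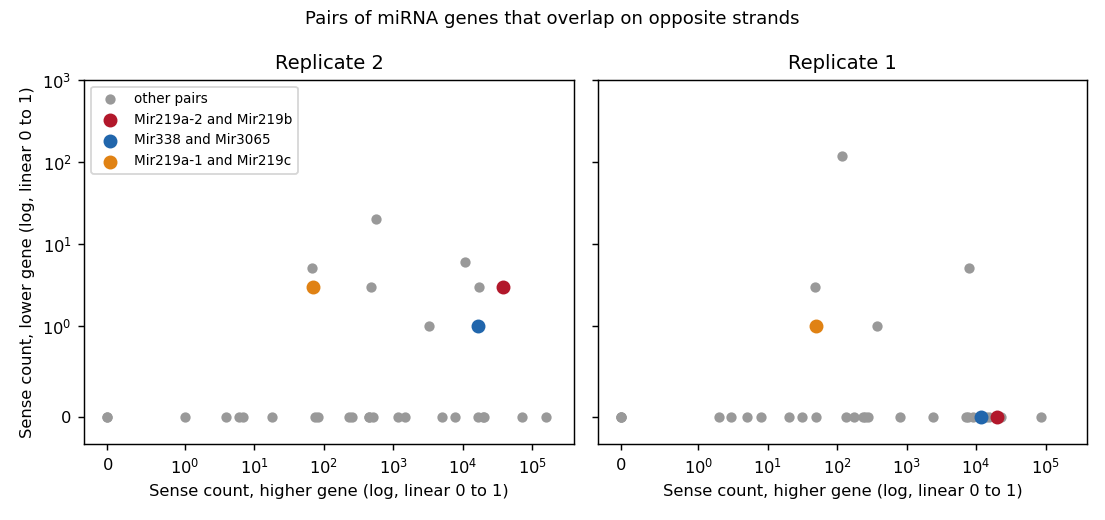
Sense counts of the higher (x) and lower (y) gene of each of the 32 opposite-strand pairs, ordered by reads over both libraries. Both axes are log scales that are linear from 0 to 1, with replicate 2 left and replicate 1 right. The Mir219a-2 and Mir338 pairs lie far to the right with at most 3 reads of the partner, and the Mir219a-1 pair lies at 71 and 50 reads with 3 and 1 of Mir219c.

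How stable the genes were between the 2 libraries was examined against all 438 detected genes. Ratios are replicate 2 over replicate 1 after TMM scaling, with an exact binomial test (two-sided) on the 2 counts of each gene and Benjamini-Hochberg adjustment over the 438 genes. A call needed both a ratio of 2 or more and an adjusted p under 0.05. The test compares the reads of 2 libraries, not conditions. None of the 3 detected genes was called, against 18.0% of the genes tested, while Mir219b and Mir3065 were too low to be tested. With the limit on the ratio lowered to 1.5, again none was called, against 39.0%. With no limit on the ratio, 1 of the 3 passed, Mir219a-2, against 63.9% of the genes tested, and the same 1 passed at an unadjusted p under 0.05. That count depends on the scaling, since Mir338 also passed with library totals (log2 ratio -0.16; exact binomial test, adjusted p = 6.24e-19) and with the GC trend removed (0.073; exact binomial test, adjusted p = 6.28e-05).

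Mir219a-2 was higher in replicate 2, at 5475 CPM against 4461 CPM in replicate 1. Its log2 ratio was 0.42, with an exact 95% interval of 0.40 to 0.45 (exact binomial test, adjusted p = 3.34e-249). This is past counting error but short of a ratio of 2, and 56.4% of the tested genes had a larger absolute log2 ratio. Mir338 had a log2 ratio of -0.03 (-0.07 to 0.00; exact binomial test, adjusted p = 0.0985), and 96.6% of the tested genes had a larger one. Mir219a-1 had -0.03 (-0.57 to 0.53; exact binomial test, adjusted p = 0.95). Its interval is wide because it rests on 71 and 50 reads. The direction of Mir338 and of Mir219a-1 turned with DESeq2 size factors and with the GC trend removed, and their ratios stayed under 1.5 times in all alternatives tried.

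**Figure D5:**
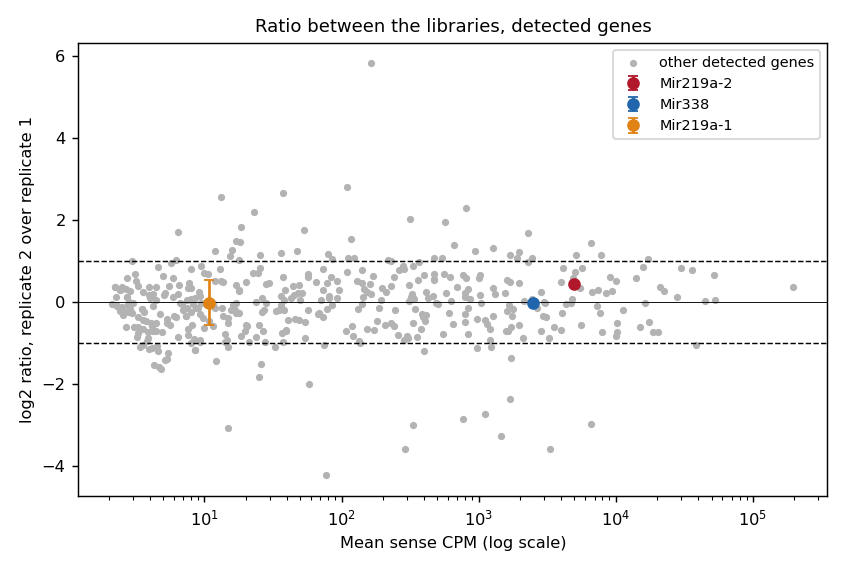
Log2 ratio of replicate 2 over replicate 1 against mean sense CPM (log scale) for the 438 detected genes, with exact 95% counting intervals for the 3 genes named and dashed lines at a ratio of 2. Mir219a-2 lies at 0.42, Mir338 and Mir219a-1 both at -0.03, all between the dashed lines.

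The genes with the most similar levels over the 2 libraries were found by the distance in log2(CPM + 1). Closest to Mir219a-2 were Mir382 (5607 CPM in replicate 2 and 4080 CPM in replicate 1), Mir34a (6087 and 4024 CPM) and Mir434 (5922 and 5103 CPM). Closest to Mir338 were Mir409 (2410 and 2521 CPM), Mir187 (2392 and 2930 CPM) and Mir143 (2063 and 2215 CPM). In mean CPM Mir219a-2 stood between Mir34a and Mir382, and Mir338 between Mir187 and Mir409. Each of these 4 neighbours differed in mean from the gene it flanks by less than that gene's SD over libraries. For Mir219a-1 the closest were Mir486 and Mir1941, both at 9.59 and 10.8 CPM, and Mir7066. Its neighbours in mean CPM were Mir6928 and Gm49347.

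Other miRNA genes linked to oligodendrocyte development formed a list of 17 counted genes, of which 15 were detected. Mir125a (16452 ± 1316 CPM), Mir23a (10194 ± 3226 CPM) and Mir138-1 (4762 ± 166 CPM) were highest (SD, n = 2 each). miR-23a and miR-138 are known to favour differentiation of the lineage. Mir138-2 (4350 ± 375 CPM) and Mir7b (1962 ± 322 CPM) followed. Mir219a-2, at 4968 ± 717 CPM, differed in mean from Mir138-1 by less than its own SD but by more than that of Mir138-1, and stood below Mir23a and Mir125a in both libraries. Mir9-2 (1.35 CPM on average) and Mir19b-1 (2 reads and 0) were not detected. For genes named as copies, such as Mir9-1, Mir9-2 and Mir9-3, reads that match several loci are in no gene's count. Their counts may therefore not be the level of the miRNA. Between the libraries, 2 of the 15 were called higher in replicate 2 (Mir9-1 and Mir9-3), against 9.36% of all genes tested, and 1 higher in replicate 1 (Mir7-2), against 8.68%. The median log2 ratio of the list was 0.08, beside -0.03 over all tested genes.

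Markers of other cell types in the same libraries ranged widely. The 7 neuron genes held 8.13% of the sense reads in replicate 2 and 6.36% in replicate 1, and 0 of their 4 detected genes were called, against 18.0% of all genes tested. Those not detected were Mir124a-1, Mir124a-2 and Mir124a-3, which are named as copies of the same miRNA. Reads that match several loci are in no gene's count. Neither these counts nor the summed share can therefore be read as a level of that miRNA or of neurons. The 2 choroid plexus genes held 0.176% and 0.0781%, and both were called higher in replicate 2, against 9.36% of all genes tested, with Mir204 at 1755 CPM there against 778 CPM in replicate 1. The 5 astrocyte and non-neuronal genes held 4.68% and 3.90%, and 1 of them was called higher in replicate 2, Mir21a at 496 CPM there against 133 CPM in replicate 1. The 5 microglia and leukocyte genes held 0.194% and 0.135% and endothelial Mir126a 0.295% and 0.164%, with 0 calls in both lists. The red blood cell genes Mir451a and Mir144 held 0.00107% and 0.000248% and were not detected. The shares of all the lists of other cell types were higher in replicate 2, as was that of Mir219a-2. These shares are sums in which abundant genes weigh most, and not every gene went the same way. Among the neuron genes, Mir132 had 61586 CPM in replicate 2 and 42570 CPM in replicate 1, but Mir598 had 9972 and 12527 CPM. Mir143 of the astrocyte and non-neuronal list and Mir223 and Mir142 of the microglia and leukocyte list were also lower in replicate 2. By contrast, the summed share of the oligodendrocyte lineage list was lower in replicate 2, at 3.77% against 4.48% in replicate 1. Its most abundant genes were both lower in replicate 2, Mir125a (15522 and 17383 CPM) and Mir23a (7912.5 and 12475 CPM). Its median log2 ratio after TMM scaling was 0.08, so the lower share was not a direction of the whole list. The list is also not separate from the others, since the microglia and leukocyte list holds Mir146 too (660 CPM in replicate 2 and 449 CPM in replicate 1). It is therefore not specific to oligodendrocytes. Mir338 (0.237% and 0.264%) and Mir219a-1 (10.2 and 11.3 CPM) were also lower in replicate 2 before TMM scaling. After it both had a log2 ratio of -0.03, a direction that turned with DESeq2 size factors and with the GC trend removed. The part of the other cell types in these ratios was not tested.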

How the data were processed

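Small RNA sequencing counts of wild-type cerebral cortex were analysed in 2 libraries of 1 group. The authors deposited raw read counts per miRNA gene in 3 columns for either strand, sense and opposite strand. They use mm10 and GENCODE M21, per the file headers, and RNA under 30 bases, per the labels. No aligner or counter is named in the labels or files used here. Of 18276311 reads in replicate 2 and 12506469 in replicate 1, 47.9% and 43.9% were placed at several loci and 11.1% and 17.0% were unmapped. In the either-strand column 2.81% and 3.67% lay outside genes and 2.15% and 1.74% were ambiguous. These 4 summary lines were left out of totals and tests.

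Of the stranded columns, that with the larger total in both libraries was taken as sense. CPM used the sense total over all 2202 genes, all of which matched GENCODE M21. A small RNA gives about 1 read whatever the precursor length, so CPM was not divided by length unless stated. TMM (edgeR 4.0.16) and DESeq2 1.42.0 size factors were taken from genes at 2 CPM or more in both libraries. Ratios add 0.5 to each count. The exact binomial test (scipy 1.17.1) was tested on simulated counts for the 438 genes at counting error alone. At an adjusted p under 0.05, 172 of 200 genes simulated with a change of 2 times passed, with 2 of 238 unchanged genes. For a change of 4 times it was 197 of 200, with 5 of 238. The 2 libraries differed beyond sampling noise (chi-square of 978 for each degree of freedom, genes with 10 or more reads), so the simulated rates do not hold for them. Those rates are also for the adjusted p alone, without the ratio of 2 that a call needed.

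Alternatives were library totals, DESeq2 size factors, no filter, the either-strand column, a GC trend removed (lowess on precursor GC), a ratio of 1.5, other denominators, other detection limits, and each library left out. The members and lists were chosen with earlier results of these data known. Genes named are the 5 members, genes overlapping them or named Mir219 or Mir338, the 3 closest in level to each detected member, its neighbours in mean CPM, the listed genes and the 5 other opposite-strand pairs with the most reads. No column was left unused. The listed symbol Mir146a matched no counted gene, while Mir146, on the same list, was counted.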

Additional observations from a re-analysis of the deposited data

How the results depend on the processing

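The summed share of the 5 genes was 0.748% of sense reads and ran from 0.711% to 0.785% with either library left out. It was 0.688% of uniquely placed reads, 0.276% of all reads and 4.22e-05% in the either-strand column. The construction of that column shows the cause, since reads over 2 genes count as ambiguous there, and 0 of the 5 genes were detected in it, against 3 in the sense column at a limit of 1, 2 or 10 CPM. The number of genes called between the libraries was 79, from 58 to 94 under 5 alternatives, and 171 at a ratio of 1.5. The log2 ratio of Mir219a-2 kept its direction and stayed short of a call, from 0.30 to 0.51, in all 5 alternatives that gave a value. That of Mir338 was -0.03 as reported, -0.16 with library totals, 0.00073 with DESeq2 size factors and 0.073 with the GC trend removed, and it passed an adjusted p under 0.05 with library totals (exact binomial test, 6.24e-19) and with the GC trend removed (6.28e-05). That of Mir219a-1 was -0.03, then -0.16, 0.0027 and 0.54 under the same settings, and the cause was not tested. The either-strand column gave no ratio for these genes. Depth limits Mir219b, Mir3065 and Mir219c, whose 0 to 3 reads lie at or below the limit that a count of 0 allows. No paired analysis was possible because there is 1 group.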

Other observations

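Detected genes that share a mature strand with another locus included genes of high and of low level. Of 395 detected genes found in the RefSeq table, 45 had a mature sequence that occurs in another precursor, with a median of 77.8 CPM, and the others had a median of 72.8 CPM. Both medians leave out genes under 2 CPM, among them any that fell there because their shared reads are in no count. They therefore cannot show whether sharing a strand lowers the counts. Mir219a-2 and Mir219a-1 both belong to the 45 and lay on either side of that median, at 4968 ± 717 and 10.7 ± 0.795 CPM (SD, n = 2 each). Another gene with opposite-strand reads stood out after its values were seen. At the Mir24-1 and Mir3074-1 locus, the lower gene had 20 reads beside 565 in replicate 2 and 119 beside 116 in replicate 1.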
